A study of Homo sapiens with 12 samples.

Results

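Neuroendocrine cells store peptide hormones and amines in dense-core secretory granules and release them on demand, and pathologists recognise tumors with these features by a small set of marker genes. The genes described here are 10 such markers, taken by symbol from both gene tables: CHGA, CHGB, SCG2, SCG3 and SCG5 (the granin family of granule proteins), SYP (synaptophysin, a protein of the vesicle membrane), ENO2 (neuron-specific enolase), NCAM1 (the adhesion molecule CD56), INSM1 (a transcription factor of endocrine progenitors) and SSTR2 (a receptor for the inhibitory hormone somatostatin). All 10 were found among the 48114 genes that each table lists, each as a single gene. The members are defined by symbol alone, though the set was drawn up with earlier results of these data known.

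In the normal pancreas, these genes belong to the hormone-secreting cells of the islets. Granins help to pack hormones into granules and are cleaved into peptides, and synaptophysin is shared by synaptic vesicles of neurons and by small vesicles of endocrine cells. Most pancreatic cancers are pancreatic ductal adenocarcinomas (PDAC), which arise from the exocrine tissue. The genes are therefore markers of another lineage than the one from which both cell lines studied here derive.

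RNA was sequenced from 12 libraries of 2 PDAC cell lines. PANC-1, which the study uses as a basal-like line, received a control siRNA (siCtrl), an siRNA against QKI (siQKI) or an siRNA against RBFOX2 (siRBFOX2) for 48 h, the latter pair at 40 nM, and gave 3 libraries per group. HPAF-II, used as a classical line, received siCtrl for 48 h and gave 3 libraries. QKI and RBFOX2 are RNA-binding proteins that regulate splicing. Each knockdown was made in PANC-1 alone, and both share the 3 siCtrl libraries as their reference. The labels do not say whether the replicates came from separate cultures, so the p-values measure the spread between these libraries.

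Values are given as normalized counts, the authors' gene counts after division by the size factor of the library. All were whole multiples of a library's smallest step, and PANC-1 libraries summed to between 292248837 and 376192091 steps, HPAF-II libraries to between 226697015 and 309720537. Most low values (82.1% to 84.8% of those up to 30 steps) were divisible by 3, which means that steps do not count fragments and leaves the true depth unknown. Error is therefore stated from replicates only. The targeted genes followed the labels. QKI went from 25533 ± 869 normalized counts with siCtrl to 5034 ± 412 with siQKI, and RBFOX2 from 15429 ± 76.8 with siCtrl to 2095 ± 352 with siRBFOX2 (SD, n = 3 each). With siQKI, RBFOX2 stood at 12642 ± 129, below all siCtrl libraries. It was itself called lower there (log2 fold change -0.29, adjusted p = 0.0207 from limma), a call lost in 6 of 17 alternative fits. With siRBFOX2, QKI stood at 28016 ± 1149 and did not pass (0.13, adjusted p = 0.105 from limma). The part of the lower RBFOX2 in the siQKI results below was not tested.

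The epithelial origin of both lines was checked on ductal, acinar, immune and fibroblast markers. All 6 ductal markers (KRT19, KRT7, KRT8, KRT18, EPCAM and SOX9) were above 0 in every siCtrl library. Expressed as rescaled counts, with every library scaled to sum to 1000000, they added up to between 2867 and 2932 in PANC-1 siCtrl libraries and between 11068 and 11955 in those of HPAF-II. KRT7 and EPCAM added little in PANC-1, at 4.16 ± 0.277 and 13.8 ± 0.327, against 866 ± 257 and 423 ± 84.5 in HPAF-II (SD, n = 3 each). The other ductal markers averaged 313 to 1243 in PANC-1. KRT7 lay below the neuroendocrine marker SYP there (6.62 ± 0.335), so a value above 0 does not by itself set the lineages apart. The 6 acinar enzymes summed to at most 0.280 rescaled counts in PANC-1 and 1.59 in HPAF-II siCtrl libraries. Of the immune markers, PTPRC and MS4A1 were listed at 0 in all 6 siCtrl libraries, and CD3E in all but 1. CD14 was above 0 in all 6, with 1.24 ± 0.344 rescaled counts in PANC-1 and 1.72 ± 0.541 in HPAF-II siCtrl libraries (SD, n = 3 each). The 9 immune and fibroblast markers summed to between 158 and 182 in PANC-1 siCtrl and between 99.6 and 126 in HPAF-II libraries, most of it from CD68, a lysosomal protein that epithelial cells can also express. The sum was 143 to 147 in siQKI and 145 to 157 in siRBFOX2 libraries. The ductal sum was 2784 to 2957 in siQKI and 2381 to 2535 in siRBFOX2 libraries, where 2 and 4 of the 6 ductal genes had fallen. Among the immune and fibroblast markers COL1A1 and PDGFRB rose and CD68 fell in both knockdowns, with COL1A1 at 0.99 and 0.42 on the log2 scale. In siRBFOX2 cells PDGFRB overlapped siCtrl and lost its call in 5 of 17 alternative fits (highest adjusted p 0.134), among them without siCtrl replicate 3, siRBFOX2 replicate 2 or siRBFOX2 replicate 3, and COL1A1 lost its call without the mean-variance trend (adjusted p = 0.0920 from limma). Of 2 acinar genes tested, CELA3A passed as lower in siRBFOX2 cells, from 28.0 normalized counts to 0. The part of these differences in the results below was not tested.

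QKI and RBFOX2 bind short RNA motifs, so 1 coding transcript of each of the 10 genes was searched on its own strand. The motifs were ACTAAC, the core of the QKI response element, and TGCATG, the RBFOX motif. Transcripts came from GENCODE 29, on hg38. The one with the best APPRIS rank as principal isoform was taken, and the longest where ranks were equal. Other transcripts of these genes were not searched. SSTR2 carried the most matches, with 1 ACTAAC and 3 TGCATG, all in the 3′ UTR of exon 2 of ENST00000357585.3. These windows of 30 bases are shown because SSTR2 was the marker whose normalized counts rose in both knockdowns. Capitals mark the motif.
SSTR2 ACTAAC, chr17:73171378-73171407 (+): gggggaaaaatcACTAACatgaaaggcaaa
SSTR2 TGCATG, chr17:73171622-73171651 (+): agaaaaccacaaTGCATGgccgggcgtggt
SSTR2 TGCATG, chr17:73172636-73172665 (+): tgtggcagaaatTGCATGcaggaaaatccc
SSTR2 TGCATG, chr17:73174421-73174450 (+): ggactgttaaaaTGCATGttccgggctggg
The transcript is long, at 7683 bases, and motifs of this size are common in long transcripts. Among 732 coding transcripts of a length within 10%, 50.7% held ACTAAC and 85.9% held TGCATG. ENO2 held TGCATG once, in exon 1, in the 5′ UTR of ENST00000535366.5, as did 49.2% of the 2144 transcripts of like length.
ENO2 TGCATG, chr12:6915267-6915296 (+): cgacacctgtatTGCATGcgcctttcgcgg
The other matches lay in genes that did not pass the test, namely 1 of each motif in SCG3, 1 TGCATG in CHGB and 1 ACTAAC in NCAM1. SYP and SCG2, the markers that fell most, held neither motif in these transcripts, nor did SCG5, CHGA and INSM1. Introns were not searched, and a match is not a measured binding site.

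Promoter sequences (RefSeq, build GRCh38.p14, 250 bases before to 50 after the start) were at hand for 6 of the 10 genes. They were searched on both strands for the cAMP response element TGACGTCA and for both parts of the RE1 element, TTCAGCACC and GGACAGCG, which the neuronal repressor REST binds. CHGA held the cAMP response element at position -54 from its start, and SCG3 held both parts of RE1 close together just after its start. In all, 1.85%, 0.376% and 1.63% of 35116 promoters held these motifs. They are shown because both are textbook switches of neuroendocrine genes, and because the REST transcript itself changed in these cells.
CHGA cAMP response element, chr14:92923085-92923114 (+): ggcggcaccgcTGACGTCAtttccggggtc
SCG3 RE1 parts, chr15:51681509-51681537 (+): acTTCAGCACCcacagggcGGACAGCGct

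In PANC-1 siCtrl cells, 8 of the 10 markers were above 0 in all 3 libraries. Levels were compared between genes as rescaled counts per kb of annotated exon. ENO2 was highest at 2.46 ± 0.0546, followed by SYP at 1.27 ± 0.0643, CHGB at 0.856 ± 0.0590 and SCG2 at 0.613 ± 0.0869 rescaled counts per kb (SD, n = 3 each). NCAM1 (0.270 ± 0.0486) and SCG5 (0.211 ± 0.0412) came next, with overlapping libraries. SCG3 followed at 0.117 ± 0.0228 and SSTR2 at 0.0339 ± 0.0175. CHGA and INSM1, the granin and the transcription factor most used to define neuroendocrine tumors, were at or next to 0 and overlapped each other. Apart from these 2 pairs, no neighbours in this order overlapped at the lengths used. Each length was that of all annotated exons of a gene together, 12737 bases for NCAM1. The NCAM1 transcript searched above had 5837 bases, so the place of NCAM1 and its overlaps depend on the length chosen. The sum of the 10 genes was 26.9 to 27.6 rescaled counts in the siCtrl libraries, of a total of 1000000, so all of them together made up a small part of the RNA.

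**Figure D1:**
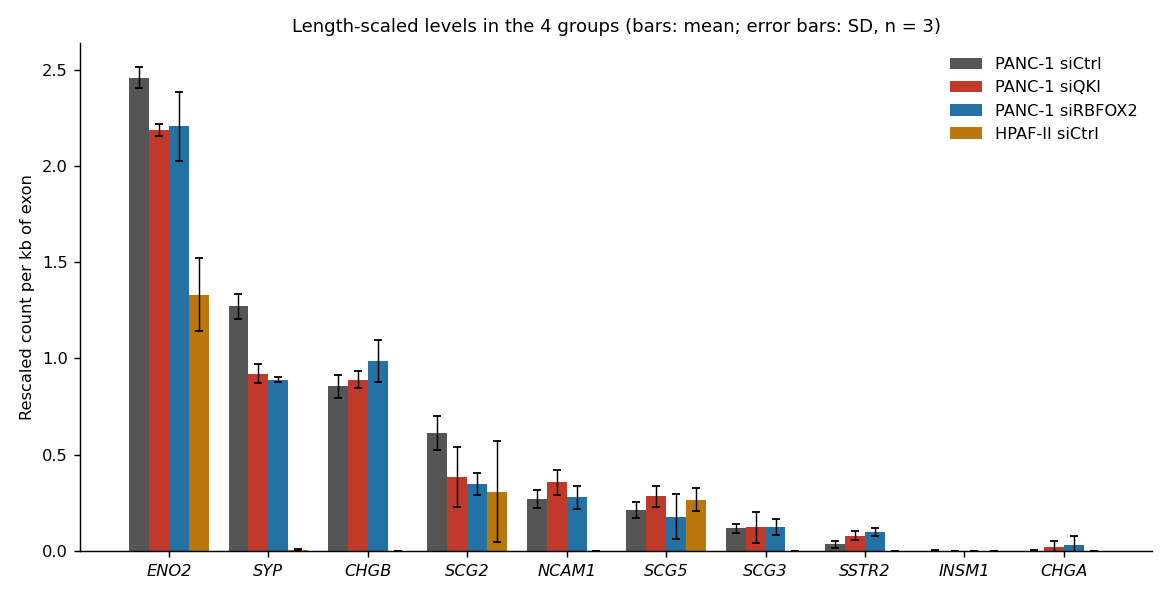
Rescaled counts per kb of exon (vertical axis) of the 10 marker genes (horizontal axis, ordered by their level in PANC-1 siCtrl) in the 4 groups; bars are means and error bars SD over 3 libraries. ENO2 and SYP lead in PANC-1 siCtrl at 2.46 and 1.27, and HPAF-II bars are visible for ENO2, SCG2 and SCG5 while its SYP bar stands at 0.00366.

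The first question was whether QKI or RBFOX2 depletion altered these genes. INSM1 was too low to test (a mean of 10 over the 9 libraries was required), and the other 9 genes entered a limma fit of 22544 genes. In siQKI cells, 4 of the 9 passed the adjusted threshold of 0.05, with SYP, SCG2 and ENO2 lower and SSTR2 higher. Over all tested genes 33.0% passed, 18.1% lower and 14.9% higher. In siRBFOX2 cells the called markers were the same 4 genes, in the same directions, where 26.5% of all genes passed, 14.5% lower and 12.0% higher. The shared siCtrl libraries enter both comparisons. The median log2 fold change of the 9 genes was -0.0040 in siQKI and -0.016 in siRBFOX2 cells, against 0.025 and 0.011 over all tested genes. Members thus moved in both directions. Rescaling each library by its upper quartile moved the balance over all siQKI calls from 3362 higher of 7432 to 4225 higher of 7282. In these bulk libraries, fewer cells that carry a transcript and less transcript per cell cannot be told apart.

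**Figure D2:**
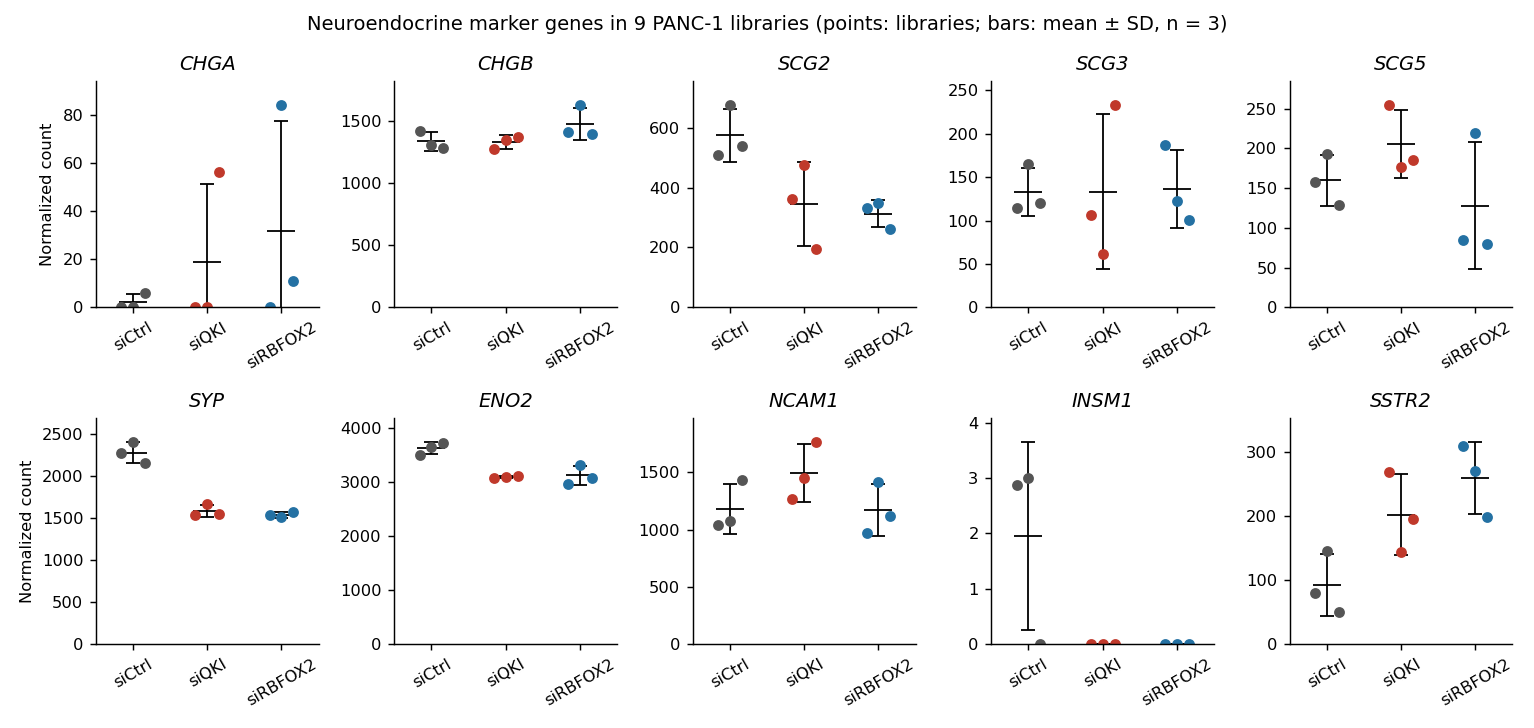
Normalized counts (vertical axes, each from 0 and scaled to its gene) of the 10 marker genes in the 9 PANC-1 libraries, by group; points are libraries, and bars show mean and SD of 3 libraries (cut at 0 where they would fall below it). All siCtrl points of SYP and SCG2 lie above all points of both knockdowns, whereas CHGA reaches 84.3 in 1 library and is at 0 in others.

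SYP had the lowest adjusted p among the markers in both knockdowns. It is the gene of synaptophysin (GSHG0046513, chromosome X, 49187814 to 49200202). The siCtrl libraries held 2274, 2405 and 2159 normalized counts, the siQKI libraries 1536, 1671 and 1550, and the siRBFOX2 libraries 1534, 1506 and 1569. Every knockdown library was below every siCtrl library, and the knockdown groups overlapped each other. The mean fell from 2279 ± 123 to 1586 ± 74.3 and 1536 ± 31.6 (SD, n = 3 each), or to 69.6% and 67.4% of siCtrl. The log2 fold changes were -0.52 (standard error 0.08, adjusted p = 1.63e-04 from limma) and -0.57 (standard error 0.08, adjusted p = 1.30e-04). Both calls held in all 17 alternative fits (other scalings, filters, pseudocounts and models, and each library left out), but neither change reached 1.5-fold, so both were lost when a fold of at least 1.5 was also required. Counts of 17 alternatives below refer to the same fits, without a fold requirement. The antisense gene SYP-AS1 overlaps SYP and had at most 29.1 normalized counts in any PANC-1 library.

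SCG2 encodes secretogranin II, a granule protein and the precursor of the peptide secretoneurin (GSHG0026353, chromosome 2, 223596940 to 223602407). It had 509, 675 and 538 normalized counts in siCtrl, 363, 474 and 196 in siQKI and 330.2, 348 and 261 in siRBFOX2 libraries. All 6 knockdown libraries were below the lowest siCtrl library, with the widest spread in siQKI. The means were 574 ± 88.3, 344 ± 140 and 313 ± 45.7 (SD, n = 3 each), so that 59.9% and 54.5% remained. The log2 fold changes were -0.82 and -0.87 (standard error 0.27 each, adjusted p = 0.0293 and 0.0254 from limma). Each call held in 13 of 17 alternatives. Both were lost without siCtrl replicate 2, without siCtrl replicate 3 and without the mean-variance trend, and each without replicate 3 of its own knockdown, where the log2 fold changes were -0.46 for siQKI (adjusted p = 0.143) and -0.75 for siRBFOX2.

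ENO2, the enolase of neurons and neuroendocrine cells in glycolysis (GSHG0008728, chromosome 12, 6914327 to 6923697), was the most abundant marker and moved least among those called. Its normalized counts were 3498, 3650.0 and 3724 in siCtrl, 3073, 3087 and 3105 in siQKI and 2968, 3318 and 3075 in siRBFOX2 libraries. The groups of knockdown libraries lay below the siCtrl group without overlap, by a small margin for siRBFOX2 replicate 2. The means were 3624 ± 115, 3088 ± 15.7 and 3120.3 ± 180 (SD, n = 3 each), and 85.2% and 86.1% remained. The log2 fold changes were -0.23 and -0.22 (standard error 0.07 each, adjusted p = 0.0139 and 0.0240 from limma). A change of this size depended on the scaling. With upper-quartile scaling both were lost (-0.17 and -0.19, adjusted p = 0.0650 and 0.0514). Neither change reached 1.5-fold. The calls held in 15 and 12 of 17 alternatives, with both also lost without siCtrl replicate 3, and that of siRBFOX2 without siCtrl replicate 2, siRBFOX2 replicate 1 or siRBFOX2 replicate 3 (highest adjusted p 0.0984).

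SSTR2, the somatostatin receptor to which imaging tracers and somatostatin analogs for neuroendocrine tumors bind (GSHG0018529, chromosome 17, 73165010 to 73179024), rose from a low level. The siCtrl libraries had 80.4, 145 and 50.3 normalized counts, the siQKI libraries 268, 143 and 195.0, and the siRBFOX2 libraries 309, 270.2 and 198. All siRBFOX2 libraries exceeded all siCtrl libraries, whereas siQKI replicate 2 fell just under siCtrl replicate 2. The means were 91.9 ± 48.3, 202 ± 62.8 and 259 ± 56.3 (SD, n = 3 each), or 219.9% and 282% of siCtrl. The log2 fold changes were 1.21 (standard error 0.38, adjusted p = 0.0218 from limma) and 1.59 (standard error 0.38, adjusted p = 0.00539). The siRBFOX2 call held in all 17 alternatives. The siQKI call held in 12 and was lost without siCtrl replicate 1, siCtrl replicate 3, siQKI replicate 1 or siQKI replicate 3 and without the mean-variance trend, with a highest adjusted p of 0.101.

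**Figure D3:**
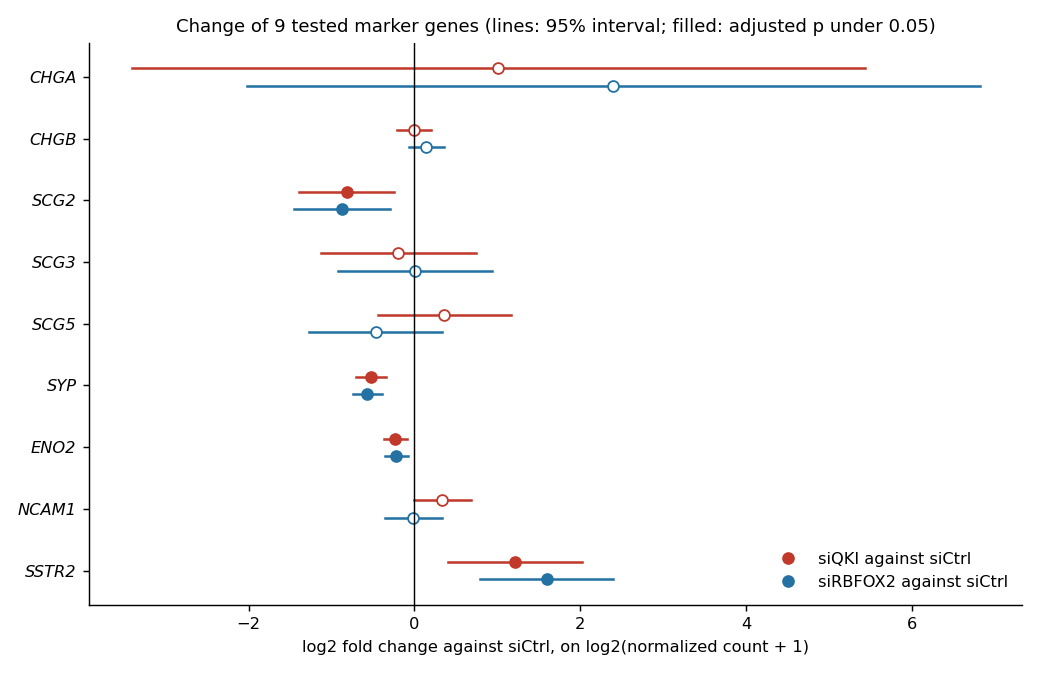
Log2 fold change against siCtrl (horizontal axis) of the 9 tested marker genes in siQKI and siRBFOX2 cells; points are limma estimates, lines their 95% intervals, and filled points passed the adjusted threshold of 0.05. SYP, SCG2 and ENO2 lie left of 0 and SSTR2 right of it in both knockdowns, and the CHGA intervals run from -3.41 to 5.43 and from -2.02 to 6.82.

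The other granins did not pass the test. CHGB (chromogranin B, GSHG0026566, chromosome 20, 5911508 to 5925357) was well expressed and nearly level, with 1420, 1303 and 1282 normalized counts in siCtrl, 1270.3, 1350 and 1371 in siQKI and 1410.2, 1626 and 1398 in siRBFOX2 libraries. Its log2 fold changes were -0.0040 (95% interval -0.21 to 0.20) and 0.14 (-0.06 to 0.35), so a change of the size seen for SYP lies outside both intervals. SCG3 (GSHG0013739, chromosome 15, 51681347 to 51721026), which tethers granule cargo to the membrane, and SCG5 (GSHG0048008, chromosome 15, 32641676 to 32697097), the chaperone 7B2 of the prohormone convertase PC2, were low and scattered. SCG3 ranged from 115 to 165 normalized counts in siCtrl, 61.0 to 233 in siQKI and 101 to 187 in siRBFOX2 libraries. SCG5 ranged from 129 to 193, 176 to 254 and 79.7 to 220 in the same order. The intervals of their log2 fold changes were wide, from -1.12 to 0.74 and -0.92 to 0.94 for SCG3 and from -0.44 to 1.16 and -1.27 to 0.34 for SCG5.

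CHGA (chromogranin A, GSHG0013396, chromosome 14, 92923149 to 92935291), the serum marker of neuroendocrine tumors, was listed at 0 in 5 of the 9 PANC-1 libraries. The values above 0 were 6.04 in siCtrl replicate 3, 56.6 in siQKI replicate 3, and 84.3 and 11.1 in siRBFOX2 replicates 2 and 3. Replicates of the same group thus ran from 0 to 84.3, and no difference could be shown (log2 fold changes 1.01 and 2.40, standard error 2.07 each, adjusted p = 0.766 and 0.454 from limma). INSM1 (GSHG0026647, chromosome 20, 20368104 to 20370949) had 2.87 and 3.00 normalized counts in siCtrl replicates 1 and 2 and was listed at 0 in the other 7 PANC-1 libraries.

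NCAM1 (GSHG0006739, chromosome 11, 112961275 to 113278436) mediates adhesion between neural and neuroendocrine cells. Its libraries had 1043, 1071 and 1433 normalized counts in siCtrl, 1266, 1448 and 1767 in siQKI and 974, 1415 and 1123 in siRBFOX2. The siQKI mean of 1493 ± 254 stood against 1182 ± 217 in siCtrl cells (SD, n = 3 each), but the libraries overlapped. The log2 fold changes were 0.34 (95% interval -0.0049 to 0.68, adjusted p = 0.127 from limma) and -0.02 (-0.36 to 0.33). The siQKI value passed in 1 of 17 alternatives, without siCtrl replicate 3, where it was 0.48 (adjusted p = 0.0418).

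The knockdowns were also compared with each other, which does not use the siCtrl means. The siCtrl libraries still entered the filter and the shared estimate of the spread. Of the 9 markers, 0 passed the adjusted threshold of limma, where 21.5% of all genes did. At an unadjusted p under 0.05, 2 of them differed. SCG5 was higher in siQKI than in siRBFOX2 cells by 0.83 (95% interval 0.02 to 1.63, adjusted p = 0.144), and NCAM1 by 0.35 (0.01 to 0.70, adjusted p = 0.142). Both passed only without siRBFOX2 replicate 2 (adjusted p = 0.0116 and 0.0441). For the 4 called markers, the log2 difference of siQKI from siRBFOX2 cells was 0.04 for SYP (95% interval -0.13 to 0.22), 0.06 for SCG2 (-0.52 to 0.63), -0.01 for ENO2 (-0.15 to 0.13) and -0.38 for SSTR2 (-1.19 to 0.43). For SYP and ENO2 these intervals exclude a difference of the size of the SYP change, whereas those of SCG2 and SSTR2 do not.

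The genes most like each called marker over the 9 PANC-1 libraries were sought among 17878 genes (mean of 50 or more) by Pearson's r of log2 values. These libraries hold 3 groups, so r reflects the group differences as well as the spread within groups. For SYP they were ERRFI1 (r = 0.987), a feedback inhibitor of EGFR, and PRAG1 (r = 0.985). SCG2 was most like FOXD1 (r = 0.952) and EXOC3 (r = 0.937), ENO2 most like CUL4A (r = 0.979) and TSN (r = 0.978), and SSTR2 most like MBLAC1 and DHRS3 (r = 0.973 each). PRAG1 averaged 8430 normalized counts with siCtrl, 5651 with siQKI and 5201 with siRBFOX2. Since these genes were picked for their likeness over the same libraries, a group pattern like that of the marker follows from the choice.

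HPAF-II siCtrl cells were set beside PANC-1 siCtrl cells to ask whether the markers separate the lines. The authors normalized the lines in separate tables, so rescaled counts are described without a test. The cell line and the table cannot be told apart. Of the 10 markers, 8 reached an average of 10 normalized counts in 1 line or both, and 6 of these (CHGB, SCG2, SCG3, SYP, NCAM1 and SSTR2) were at least 2-fold lower in HPAF-II on log2(rescaled count + 0.01), 0 were higher and 2 (ENO2 and SCG5) were within 2-fold. Among 24673 genes, 27.1% were as much lower and 26.1% higher. Without HPAF-II replicate 2 or 3 the count was 5, since SCG2 was then within 2-fold.

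Several genes had no value above 0 in HPAF-II. CHGB, SCG3, NCAM1 and SSTR2 were listed at 0 in all 3 HPAF-II libraries and above 0 in all PANC-1 siCtrl libraries, which 5.73% of the 24673 genes were. In PANC-1 siCtrl cells these had 3.88 ± 0.267, 0.387 ± 0.0756, 3.43 ± 0.619 and 0.266 ± 0.138 rescaled counts (SD, n = 3 each). SYP had 6.71, 6.91 and 6.25 rescaled counts in the PANC-1 libraries and 0.0088, 0 and 0.0484 in the HPAF-II libraries, or 0.288% of the PANC-1 mean. CHGA and INSM1 were also listed at 0 in all HPAF-II libraries, so 6 of the 10 markers had no value above 0 in this line.

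The markers that HPAF-II cells did carry were ENO2, SCG2 and SCG5. ENO2 had 6.12, 4.76 and 6.22 rescaled counts in HPAF-II and 10.3, 10.5 and 10.8 in PANC-1 siCtrl libraries, a log2 ratio of -0.89 with no overlap. SCG5 was level, with 0.587, 0.714 and 0.455 in HPAF-II and 0.466, 0.554 and 0.373 in PANC-1 libraries. SCG2 varied between the HPAF-II libraries. Replicate 1 had 1.66 rescaled counts, inside the PANC-1 range of 1.503 to 1.938, and replicates 2 and 3 had 0.407 and 0.436. The summed level of the 10 genes was 5.88 to 8.37 rescaled counts in HPAF-II libraries, below the 26.9 to 27.6 of PANC-1 siCtrl cells, and ENO2 made up most of it.

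**Figure D4:**
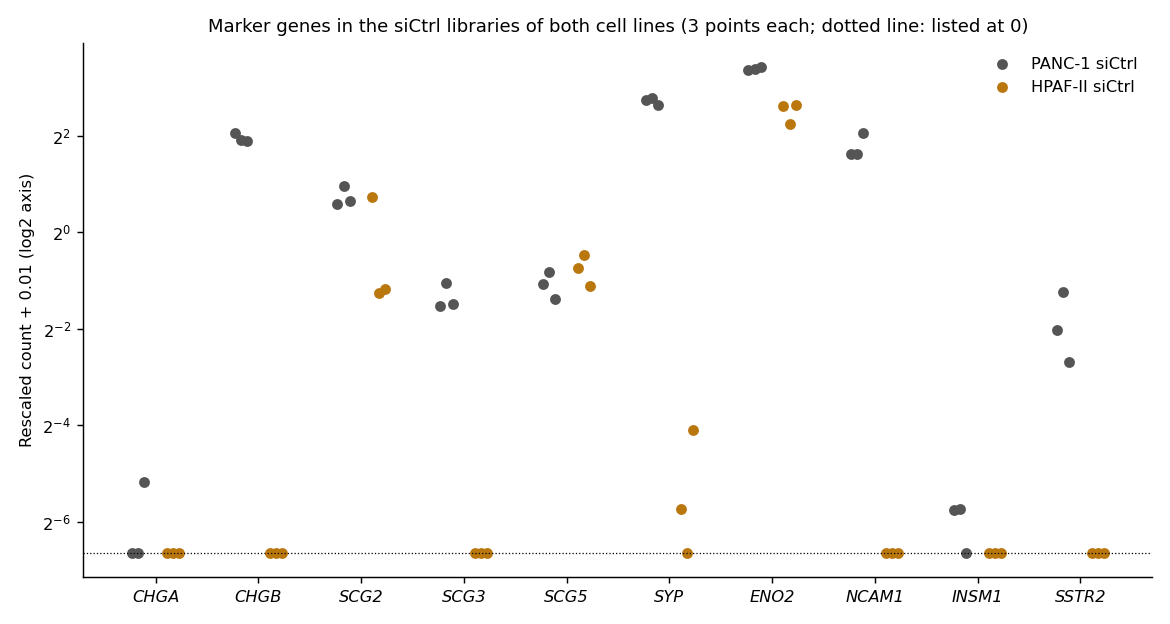
Rescaled count plus 0.01 on a log2 axis (vertical) of each marker gene (horizontal) in the 3 PANC-1 siCtrl and 3 HPAF-II siCtrl libraries; each point is a library and the dotted line marks genes listed at 0. In HPAF-II libraries 6 markers sit on the dotted line, while SCG5 lies at the PANC-1 level and ENO2 somewhat below it.

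Genes that work with the markers were then followed in lists of related function, to see whether the markers moved alone. Of 157 genes in 11 lists, 102 were tested. In siQKI cells 25 were higher and 12 lower, and in siRBFOX2 cells 17 were higher and 12 lower. The shares of all genes given above (33.0% and 26.5%) are the background for these counts and for each list below. Taken in either direction, the counts of the 102 genes lay near these shares. By direction, 14.9% of all tested genes were higher and 18.1% lower in siQKI cells, and 12.0% and 14.5% in siRBFOX2 cells. The lists were chosen with earlier results of these data known, so their balance of directions is only a description.

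Of the 6 tested genes of the synaptophysin and synaptogyrin family, 2 passed in siQKI cells, both higher, and in siRBFOX2 cells 2 rose and 1 fell (median log2 fold changes 0.46 and 0.13). The 2 of 6 in siQKI cells are close to the 33.0% of all genes. With a fold of at least 1.5 required, 0 genes of this family passed limma in either knockdown. SYNGR1 and SYNGR3, synaptogyrins of the synaptic vesicle membrane, were the ones that rose. SYNGR1 had 1828, 2133 and 2203 normalized counts in siCtrl, 3074, 2853 and 2371 in siQKI and 2973, 2867 and 2424 in siRBFOX2 libraries. All knockdown libraries were above all siCtrl libraries, opposite to SYP. Its log2 fold changes were 0.42 in both (adjusted p = 0.00698 and 0.00943 from limma), and those of SYNGR3 were 0.49 and 0.53 (adjusted p = 0.00172 and 0.00127). Among the 17 alternatives the SYNGR1 calls were lost without the mean-variance trend (adjusted p = 0.0527 and 0.0666), and the SYNGR3 calls held. SYPL1, the widely expressed synaptophysin-like protein, was lower in siRBFOX2 cells (-0.27, adjusted p = 1.70e-04).

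The enolases also differed among themselves. ENO1, the enolase of most tissues, stood at 1012860 ± 43501 normalized counts with siCtrl (SD, n = 3), and its log2 fold changes of -0.03 and -0.04 did not pass. ENO3, the muscle enolase, rose in siQKI cells from 649.9 ± 50.4 to 1178 ± 148 normalized counts (SD, n = 3 each; log2 fold change 0.85, adjusted p = 1.27e-04 from limma) while ENO2 fell. ENO4 also passed in siQKI cells (1.82, adjusted p = 0.0345), but in only 10 of 17 alternatives and from 31.0 ± 28.3 normalized counts. Neither passed in siRBFOX2 cells.

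Among the other somatostatin receptors, SSTR5 was the only one tested, 2 of the 4 being listed at 0 in all 12 libraries. It had 140, 72.0 and 68.4 normalized counts in siCtrl, 312, 134 and 254 in siQKI and 13.7, 69.7 and 24.1 in siRBFOX2 libraries. The groups overlapped with siCtrl in both knockdowns. It was lower in siRBFOX2 cells (-1.59, adjusted p = 0.0461 from limma), a call that held in only 3 of 17 alternatives, and its 1.31 in siQKI cells did not pass (adjusted p = 0.0870). The knockdowns themselves stood apart, with SSTR5 higher in siQKI than in siRBFOX2 cells by 2.90 (95% interval 1.71 to 4.08, adjusted p = 0.00139).

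Genes of granule cargo and prohormone processing (14 genes, 10 tested) included 2 that rose and 1 that fell in siQKI cells, and 1 of each in siRBFOX2 cells (medians 0.31 and 0.32). CADPS2, which primes dense-core vesicles for release, rose from 48.0 ± 41.1 to 163 ± 81.2 and 150 ± 51.4 normalized counts (SD, n = 3 each; log2 fold changes 2.03 and 1.97, adjusted p = 0.0200 and 0.0279 from limma). Its libraries overlapped between groups, and the calls held in 13 and 12 of 17 alternatives. PCSK1N, the inhibitor proSAAS of the convertase PC1, rose in siQKI cells (0.61, adjusted p = 9.13e-04) in all 17 alternatives. VGF, a granin-like neuropeptide precursor, was lower in both (-0.96 and -1.15, adjusted p = 2.79e-05 and 8.95e-06), but its gene model in the files, on chromosome 7 from 100791369 to 101165595, spans AP1S1 and other expressed genes, so its value is uncertain. Of the 20 islet and gut peptide hormones, 6 were tested and 7 were listed at 0 in all 12 libraries, among them INS, GCG, SST and IAPP. By limma 0 hormones passed in either knockdown (medians -0.30 and 0.49), and at an unadjusted p under 0.05 there were 1 in siQKI and 0 in siRBFOX2 cells. Of the 8 genes of amine synthesis and uptake, 4 were tested and 0 passed by limma (medians 1.13 and -0.16), with 1 and 0 at an unadjusted p under 0.05.

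**Figure D5:**
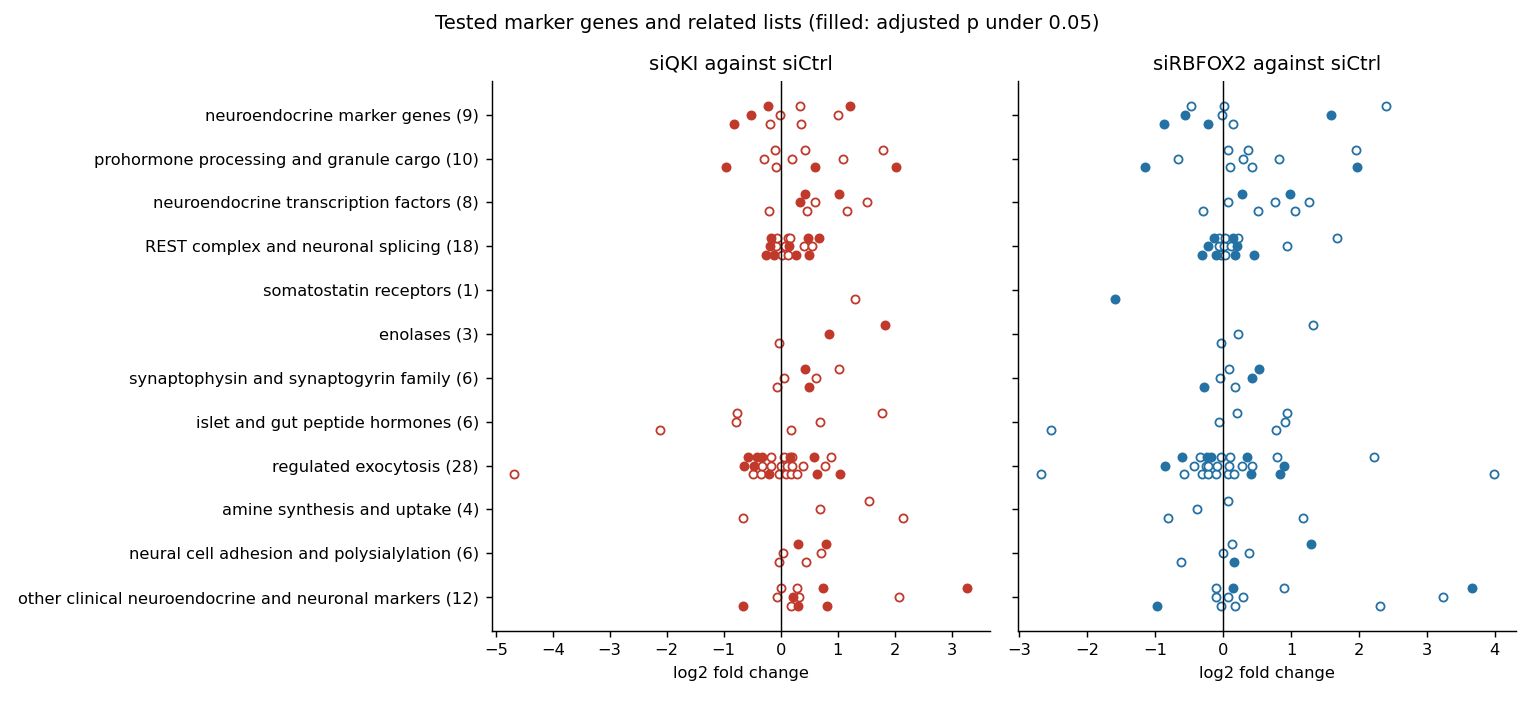
Log2 fold change against siCtrl (horizontal axes) of each tested gene of the marker set and of 11 related lists (rows, with the number of genes tested) in siQKI (left) and siRBFOX2 cells (right); each point is a gene, and filled points passed the adjusted threshold of 0.05. Filled points lie on both sides of 0 in the marker set, with 1 to the right and 3 to the left in each panel.

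REST, the repressor that keeps neuronal genes silent outside the nervous system (GSHG0032634, chromosome 4, 56907900 to 56966808), was higher in both knockdowns. It had 2679, 2459.6 and 2741 normalized counts in siCtrl, 3875, 4209 and 4451 in siQKI and 3484, 3830 and 3545 in siRBFOX2 libraries. All knockdown libraries exceeded all siCtrl libraries. The log2 fold changes were 0.67 and 0.46 (standard error 0.07 each, adjusted p = 5.37e-06 and 2.76e-04 from limma), and both held in all 17 alternatives. With a fold of at least 1.5 required, the siRBFOX2 call of REST was lost, and of its whole list 1 gene (REST) remained in siQKI and 0 in siRBFOX2 cells by limma. REST overlaps NOA1 in the annotation, which had a mean of 3059, 3178 and 3322 normalized counts in the same groups. Of the 18 tested genes of the REST complex and of neuronal splicing, 5 rose and 4 fell in siQKI cells, and 4 rose and 4 fell in siRBFOX2 cells (medians 0.12 and 0.03). RCOR2, a REST corepressor, rose in siQKI cells (0.50, adjusted p = 1.49e-04), RCOR1 fell in siRBFOX2 cells (-0.31, adjusted p = 0.00647), and EHMT2, a histone methyltransferase that REST recruits, rose in both (0.27 and 0.21). The phosphatase gene CTDSP1 fell in both (-0.26 and -0.22), and CTDSPL rose in siQKI cells (0.49, lost in 3 of 17 alternatives, among them without siCtrl replicate 1 and without siQKI replicate 3). Other genes of this list that passed, among them SIN3A, HDAC1, KDM1A and CTDSP2, changed by less than 0.2 on the log2 scale and are named after their values were seen. In HPAF-II cells REST was at 20.8 ± 7.19 rescaled counts, against 7.64 ± 0.496 in PANC-1 siCtrl cells (SD, n = 3 each).

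Of the 20 transcription factors of neuroendocrine cells, 8 were tested and 5 were listed at 0 in all libraries. In siQKI cells 3 passed and in siRBFOX2 cells 2, all of them higher (medians 0.53 and 0.64). These 3 and 2 of 8 are close to the 33.0% and 26.5% of all tested genes that passed. Higher calls made up 14.9% and 12.0% of all tested genes. PAX6, a factor of islet cells and of the eye, rose from 179 ± 9.40 to 366 ± 16.5 and 356 ± 34.4 normalized counts (SD, n = 3 each; log2 fold changes 1.03 and 0.99, adjusted p = 6.77e-04 and 0.00138 from limma), in all 17 alternatives. HES6 rose by 0.34 and 0.28, the latter lost without the trend. MNX1 passed in siQKI cells (0.43, adjusted p = 0.0494) but in only 6 of 17 alternatives.

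The release machinery (34 genes, 28 tested) moved both ways, with 4 higher and 6 lower in siQKI cells and 4 of each in siRBFOX2 cells (medians 0.03 and -0.06). VAMP1, a vesicle SNARE, rose by 1.04 and 0.41 (adjusted p = 1.39e-07 and 0.00145 from limma), and RAB27B, a small GTPase of secretory granules, by 0.59 and 0.90 (adjusted p = 5.61e-05 and 1.74e-06). DOC2B, a calcium sensor, rose by 0.65 and 0.83, the former lost without siCtrl replicate 1 or siQKI replicate 2. VAMP2 fell in siRBFOX2 cells by 0.61 on the log2 scale and was slightly higher in siQKI cells (0.17, lost in 5 of 17 alternatives). RAB3B fell in siQKI cells (-0.64). Among others that passed, named after their values were seen, STX1A and CPLX1 fell in both knockdowns, RAB27A, SYT9 and SNAP23 fell in siQKI cells and RAB3D rose in siRBFOX2 cells.

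Neural adhesion genes other than NCAM1 (10 genes, 6 tested) included 2 that passed in each knockdown, all higher (medians 0.38 and 0.14). These 2 of 6 are near the 33.0% and 26.5% of all tested genes that passed. L1CAM, the most abundant of them, had 85413, 80038 and 77673 normalized counts in siCtrl, 149922, 136113 and 134520 in siQKI and 82178, 85016 and 76658 in siRBFOX2 libraries. Only the siQKI libraries stood apart (log2 fold change 0.79, adjusted p = 2.47e-08 from limma). CADM1 also rose in siQKI cells (0.31), and NCAM2 and FGFR1 rose in siRBFOX2 cells (1.29 and 0.16). The NCAM2 call was lost in 3 of 17 alternatives, namely without the trend, siCtrl replicate 1 or siRBFOX2 replicate 1 (highest adjusted p 0.109). In the remaining list of clinical and neuronal markers (17 genes, 12 tested), 5 rose and 1 fell in siQKI and 2 rose and 1 fell in siRBFOX2 cells (medians 0.29 and 0.16). STMN3, a microtubule regulator of neurons, fell by 0.66 and 0.97 on the log2 scale (adjusted p = 2.47e-08 and 1.08e-09). TUBB3 rose in both (0.22 and 0.14), and RET, KCNH2 and GNAO1 rose in siQKI cells (0.82, 0.75 and 0.31). All 3 calls were lost without siQKI replicate 1, and those of RET (highest adjusted p 0.109) and GNAO1 also without siCtrl replicate 3 and without the trend. UCHL1, a neuronal ubiquitin hydrolase named after its values were seen, passed in both (3.28 and 3.66, adjusted p = 0.0314 and 0.0217) at a mean of 35.8 normalized counts over the 9 libraries.

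Between the lines, genes of the 11 related lists differed in both directions. Of the 103 genes high enough to compare, 46 were at least 2-fold lower in HPAF-II and 29 at least 2-fold higher. In addition, 11 were listed at 0 in every HPAF-II library and above 0 in every PANC-1 siCtrl library. Over all 24673 genes compared, the shares were 27.1%, 26.1% and 5.73% in the same order. The related lists were chosen with earlier results of these data known. Genes listed at 0 in HPAF-II were high enough to compare only through PANC-1. No excess over these shares can therefore be read from the counts. SYNGR1 and PCSK1N followed SYP, at 0.0182 and 0.00108 rescaled counts in HPAF-II against 5.97 and 2.94 in PANC-1 siCtrl cells. DLL3, RET, GNAO1, CADM1 and SYT9 were listed at 0 in HPAF-II, where PANC-1 siCtrl cells had 39.6, 2.90, 8.66, 8.84 and 7.78 rescaled counts. The opposite order was seen for DDC, the enzyme that makes dopamine and serotonin, with 91.5 rescaled counts in HPAF-II and 0.190 in PANC-1. It was also seen for SYT13 (17.02 against 0.0152) and for ISL1, an islet transcription factor (5.77 against 0.0774).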

How the data were processed

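Libraries were made from polyA RNA with the Universal Plus mRNA-Seq kit and sequenced in paired-end format. The submitters' processing notes name STAR 2.7.5a, SAMtools, Picard, FastQC, DESeq2 and hg38; how strands and read pairs were counted is not given in the sources used here. The deposited values are a signal, namely counts per gene over a DESeq2 size factor that the authors estimated for PANC-1 and HPAF-II libraries apart. Steps between values do not equal fragments, so no count model was run and no counting interval is given.

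PANC-1 groups were tested with limma 3.58.1 (R 4.3.3) on log2(normalized count + 1), in 1 fit of 9 libraries and 22544 genes (mean of 10 or more) whose variance prior followed the mean, with Benjamini-Hochberg adjustment over all of them. Fold changes of low genes are understated on this scale. The code was tested on simulated data of 22544 genes with 200 changed in siQKI. It recovered 107 of these, all in the right direction, with 7 false calls. In the real data 33.0% of the genes passed with siQKI, and the adjustment is less strict when more genes change. The simulated recovery is therefore not that of these data. A gene that did not pass may still have changed. Replicate numbers did not pair the libraries (r of same-numbered deviations -0.0325 to 0.0235), so no block was used. Other values were computed with Python 3.11.15, numpy 2.4.6 and pandas 2.3.3. Exon lengths came from GENCODE 29.

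The 10 genes and the related lists were chosen with earlier results of these data known. From the lists, the text names per list and knockdown up to 4 called genes with the largest change and a mean of at least 50, REST and the relatives of SYP, ENO2 and SSTR2, and per list genes from the 4 largest differences between the lines. Alternatives were pseudocounts of 0.1 and 10, no filter or a mean of at least 50, upper-quartile scaling, fits of the compared groups only, a replicate block, no trend and each library left out. A fold of at least 1.5 was also required. Lines were compared among genes that reached a mean of 10 in 1 of them, where the plan had set no minimum; both gave 6 markers lower. Some genes of the lists are counted but not reported here by name.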

Additional observations from a re-analysis of the deposited data

How the results depend on the processing

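The number of markers called against siCtrl was 4 in each knockdown. Requiring a fold of at least 1.5 left 2 in siQKI cells and 2 in siRBFOX2 cells (SCG2 and SSTR2), and dropping the mean-variance trend left 2 in siQKI cells (SYP and ENO2). Leaving out 1 library gave 2 to 4 in siQKI and 2 to 4 in siRBFOX2 cells, lowest without siCtrl replicate 3 and without siQKI or siRBFOX2 replicate 3, and for siRBFOX2 also without siCtrl replicate 2. Between the knockdowns it gave 0 to 2. With the replicate number as a block, 4 markers were called in siQKI and 4 in siRBFOX2 cells, and over all genes the calls went from 7432 to 7336 and from 5985 to 5891. Among the genes named, SSTR5 in siRBFOX2 and MNX1 in siQKI cells lost the call with the block. The numbers do not pair the libraries. The markers lower in HPAF-II numbered 6, or 7 with the deposited values and 5 without HPAF-II replicate 2 or 3, and 0 were higher in every alternative.

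Signs turned only where no call was made. With upper-quartile scaling these were CHGB in siQKI (0.058), ENO2 between the knockdowns (0.017), NCAM1 in siRBFOX2 (0.015) and ENO1 in siQKI (0.032). Without 1 library, siQKI against siCtrl ran from -0.94 to 1.99 for CHGA, -0.033 to 0.041 for CHGB and -0.70 to 0.26 for SCG3. For siRBFOX2 the ranges were -0.24 to 0.20 for SCG3, -0.16 to 0.13 for NCAM1 and -0.072 to 0.0049 for ENO1. Between the knockdowns they were -0.22 to 0.41 for SCG2, -0.71 to 0.25 for SCG3 and -0.049 to 0.032 for ENO2. The cause of these changes was not tested.

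The depth in fragments is unknown, so a gene listed at 0 is given no upper limit. With 3 libraries a group, the 95% intervals of CHGA and SCG3 include changes of over 1.5-fold in either direction. Leaving out a library leaves 2 in its group, which are assumed to vary like the other groups.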
